A study of Ovis aries with 6 samples.

Results

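The genes described here encode membrane transporters that move organic anions, organic cations and short peptides across the choroid plexus, the tissue between blood and cerebrospinal fluid (CSF). They were chosen by name as a list of 9 symbols, and 8 of them were matched among the 33609 genes listed. Of the 8, 7 carry the symbol in the deposited count table, and SLC15A2 was matched by its identifier through the sheep reference annotation. SLC22A6, which encodes another organic anion transporter, was not matched and was not analysed here.

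RNA came from the choroid plexus of ewes in 3 groups. The THX group was thyroidectomised, that is, its thyroid gland had been removed, and was held in long days. The Long group was labelled as control and held in long days, and the Short group was labelled as control and held in short days. The submitters' design text states 8 ewes in each control group and 7 in the THX group. RNA of 3 to 4 ewes was mixed in equal amounts to make each pool, and every group has 2 pools. An SD below thus measures the spread between pools of ewes and not between ewes. A p-value below rests on a variance that a model estimated from pools of all groups, and likewise not on single ewes. Neither the breed and age of the ewes nor the time since surgery is given in the sources used here.

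The organic anion and cation transporters of the SLC22 family carry small charged molecules, including drugs, hormone conjugates and metabolites of neurotransmitters. In the choroid plexus of rodents, organic anion exchangers and the peptide transporter PEPT2 take such molecules up from CSF into the epithelium, which is 1 of the routes by which CSF is cleared. The organic anion transporting polypeptides of the SLCO family carry larger, often bulky molecules such as steroid conjugates, prostaglandins and thyroid hormones. SLC47A1 exchanges organic cations for protons and is known for the excretion of drugs in kidney and liver.

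The pools held between 48282883 and 82100653 counts, and 18019 genes, all 8 transporters included, had enough counts to be tested. Levels are in CPM, counts scaled to a common library total after correction by the TMM method. Transthyretin (TTR), the hormone carrier that marks choroid plexus epithelium, stood at 118872 and 140707 CPM in THX pools, 107613 and 109231 CPM in Long pools and 86397 and 92709 CPM in Short pools. HR, a known target of the thyroid hormone receptor, was at 3.36 and 2.76 CPM in THX pools, against 23.7 and 23.4 CPM in Long pools (log2 difference −2.94, SE 0.12, adjusted p = 0.000835 by the quasi-likelihood test of edgeR). KLF9, another such target, was at 36.1 and 34.1 CPM in THX pools, against 93.2 and 89.9 CPM in Long pools (log2 difference −1.38, adjusted p = 0.0053, edgeR), a call lost without Long pool 2 (log2 difference −1.41, adjusted p = 0.0882). The 2 THX pools were less alike than the pools of either control group: their counts differed by 70.1 times the variance of counting, against 15.8 times for Long and 28.3 times for Short pools. On the first principal component of all tested genes (30.9% of the variance) THX pool 2 was lowest, at −42.7. THX pool 1, at −4.67, lay between the Long pools (−1.16 and −8.60), and the Short pools were at 38.4 and 18.7. On the second principal component (26.4% of the variance) THX pool 1 was at 47.8 and the other 5 pools between −18.9 and 5.25. In bulk RNA, fewer cells of a type and less RNA per cell cannot be told apart.

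The outcome for the transporters can be put briefly. SLC22A8 had its highest levels, and SLCO2B1 its lowest, in the pools of thyroidectomised ewes, with no overlap with the pools of either control group. SLC22A17 was ordered THX over Long over Short, and SLCO1A2 was highest in Short pools. None of these differences passed an adjusted p of 0.05 over all tested genes by edgeR in any of the 3 comparisons, so none is called a change below. Of the other 4 transporters, SLC22A5 was higher in THX than in Long pools without overlap, but its THX and Short pools overlapped. SLCO2A1 and SLC15A2 were separated only between THX and Short pools, and SLC47A1 overlapped in every pairing.

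**Figure D1:**
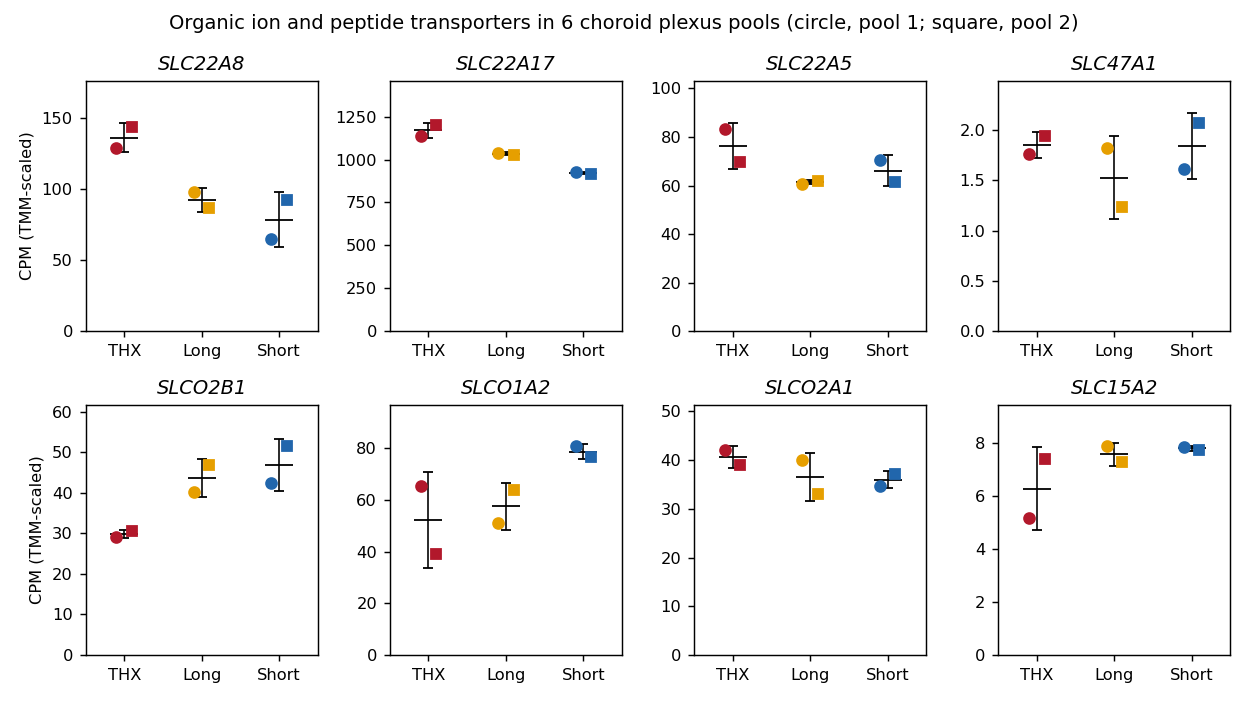
Level of each of the 8 transporters in CPM (y axis, starting at 0, own scale per gene) in THX, Long and Short pools (x axis). Circles are pool 1, squares pool 2, and the bar with whiskers is the mean ± SD of the 2 pools. SLC22A8 lies at 129 and 144 CPM in THX pools, above all 4 control pools, and SLCO2B1 at 29.2 and 30.5 CPM in THX pools, below all 4.

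SLC22A8, also called OAT3, is an exchanger that takes up organic anions in return for a dicarboxylate and handles drugs and hormone sulfates. It was at 129 and 144 CPM in THX pools, 98.2 and 86.6 CPM in Long pools and 64.7 and 92.4 CPM in Short pools. Both THX pools thus lay above all 4 control pools, whereas the Long and Short pools overlapped, and Short pool 1 was the lowest of the 6. The mean was 137 ± 10.4 CPM in THX pools and 92.4 ± 8.23 CPM in Long pools (SD, n = 2 each), a 1.48-fold ratio (log2 difference 0.56, SE 0.17, 95% interval 0.17 to 0.95) that did not pass over all genes (adjusted p = 0.334, edgeR). Against the Short mean of 78.6 ± 19.6 CPM the ratio was 1.74-fold (log2 difference 0.80, SE 0.17, 95% interval 0.41 to 1.19, adjusted p = 0.0766 by edgeR). Intervals here and below are not adjusted for the number of genes. The Long and Short groups differed by 0.24 on the log2 scale with an interval that spans 0 (−0.16 to 0.63, adjusted p = 0.522, edgeR), and without Short pool 1 that difference was −0.00.

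SLC22A17 is a distant member of the same family and a receptor for the iron-binding protein lipocalin-2, whose gene LCN2 had too few counts to be tested. It was at 1139 and 1202 CPM in THX pools, 1041 and 1027 CPM in Long pools and 927 and 917 CPM in Short pools. The 3 groups formed a complete order without overlap, THX over Long over Short, an order also held by 4.75% of all tested genes. The 2 pools of a group were close, at 1.06-fold in THX, 1.01-fold in Long and 1.01-fold in Short pools. The steps were small: 1.13-fold for THX over Long (log2 difference 0.18, SE 0.07, adjusted p = 0.531, edgeR) and 1.12-fold for Long over Short (log2 difference 0.17, SE 0.07, adjusted p = 0.369, edgeR). Over both steps THX pools stood 1.27-fold above Short pools (log2 difference 0.34, 95% interval 0.17 to 0.52, adjusted p = 0.0785, edgeR). This difference was 0.39 in the fit without THX pool 1, which leaves only THX pool 2 in that group. Its adjusted p ran from 0.000132 to 0.327 over all alternatives.

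SLC22A5, also called OCTN2, carries carnitine into cells together with sodium and so supplies fatty acid oxidation. It was at 83.1 and 69.6 CPM in THX pools, 60.8 and 62.0 CPM in Long pools and 70.5 and 61.6 CPM in Short pools. The THX pools lay above both Long pools but overlapped the Short pools, since Short pool 1 exceeded THX pool 2. THX and Long differed by 0.31 on the log2 scale (SE 0.11, 95% interval 0.05 to 0.58, adjusted p = 0.445, edgeR), and THX and Short by 0.21 (adjusted p = 0.302, edgeR). SLC22A4, which carries the antioxidant ergothioneine in humans and is the next protein-coding gene to SLC22A5 on the sheep assembly of the reference table, was at 76.8 and 84.7 CPM in THX pools, 72.4 and 74.2 CPM in Long pools and 64.4 and 62.5 CPM in Short pools. SLC22A4 thus showed the complete order that SLC22A17 showed, again without passing (log2 difference of THX against Short 0.35, SE 0.08, adjusted p = 0.0883, edgeR).

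SLC47A1, the multidrug and toxin extrusion protein MATE1, had only 67 to 136 reads per pool. It was at 1.76 and 1.94 CPM in THX pools, 1.82 and 1.23 CPM in Long pools and 1.61 and 2.07 CPM in Short pools, and all 3 pairs of groups overlapped. Counting error alone was wide at this depth: the exact Poisson 95% interval was 0.955 to 1.57 CPM for Long pool 2 and 1.48 to 2.21 CPM for Long pool 1. A difference of THX from Long pools anywhere between −0.39 and 0.94 on the log2 scale lay in the 95% interval (estimate 0.28, adjusted p = 0.892, edgeR). Counting intervals cover counting error only.

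SLCO2B1 carries steroid sulfates and several drugs, and in mice it is found in blood vessels and macrophages of the brain. It was at 29.2 and 30.5 CPM in THX pools, 40.3 and 46.9 CPM in Long pools and 42.4 and 51.5 CPM in Short pools. Both THX pools lay below all 4 control pools, and the Long and Short pools overlapped. The mean was 29.9 ± 0.93 CPM in THX pools and 43.6 ± 4.67 CPM in Long pools (SD, n = 2 each), a log2 difference of −0.55 (SE 0.12, 95% interval −0.83 to −0.26, adjusted p = 0.205, edgeR). Against the Short mean of 46.9 ± 6.44 CPM the log2 difference was −0.65 (SE 0.12, 95% interval −0.93 to −0.37, adjusted p = 0.0653, edgeR). With the pool number added to the fit as a block, the THX against Short difference of SLCO2B1 passed (log2 difference −0.64, adjusted p = 0.0283, edgeR). Over all alternatives its adjusted p ran from 0.00027 to 0.156, and its log2 difference from −0.79 to −0.50. Long and Short pools differed by −0.10 (95% interval −0.39 to 0.18, adjusted p = 0.704, edgeR).

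SLCO1A2 carries bile salts, steroid conjugates and, in humans, thyroid hormones. It was at 65.3 and 39.2 CPM in THX pools, 51.1 and 64.0 CPM in Long pools and 80.7 and 76.7 CPM in Short pools. Both Short pools lay above the other 4, while the THX and Long pools overlapped. The THX pools were 1.67-fold apart, where the median tested gene was 1.15-fold apart between these 2 pools. The log2 difference was −0.45 for Long against Short (SE 0.23, 95% interval −0.99 to 0.08, adjusted p = 0.401, edgeR) and −0.59 for THX against Short (SE 0.23, 95% interval −1.13 to −0.06, adjusted p = 0.19, edgeR). The THX against Short value depended on which THX pool was used: it was −1.00 without THX pool 1 and −0.26 without THX pool 2. Over all alternatives its adjusted p ran from 0.0363 to 0.502. THX and Long differed by −0.14 (95% interval −0.68 to 0.40, adjusted p = 0.961, edgeR), and this difference turned to 0.19 without THX pool 2 and to 0.03 without Long pool 2.

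SLCO1C1, a thyroxine transporter of brain blood vessels and choroid plexus in rodents and a member of the same subfamily as SLCO1A2, was likewise lowest in THX pool 2. It was at 306 and 219 CPM in THX pools, 257 and 307 CPM in Long pools and 328 and 290 CPM in Short pools. The 3 groups of SLCO1C1 overlapped in every pairing, and THX and Short differed by −0.24 on the log2 scale (95% interval −0.63 to 0.16, adjusted p = 0.428, edgeR).

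SLCO2A1 takes up prostaglandins and thereby ends their action. It was at 42.2 and 39.1 CPM in THX pools, 40.1 and 33.1 CPM in Long pools and 34.8 and 37.2 CPM in Short pools. All 6 pools lay within 1.27-fold, the narrowest range of the 8 transporters, and only the THX and Short pools were separated, by a log2 difference of 0.17 (95% interval −0.09 to 0.43, adjusted p = 0.371, edgeR). The THX against Long difference was 0.15 (95% interval −0.11 to 0.41, adjusted p = 0.816, edgeR).

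SLC15A2, or PEPT2, moves short peptides together with protons. It was at 5.17 and 7.40 CPM in THX pools, 7.89 and 7.29 CPM in Long pools and 7.88 and 7.75 CPM in Short pools. THX pool 1 was the low pool, and its Poisson 95% interval of 4.60 to 5.80 CPM lay below that of every other pool. The 4 control pools and THX pool 2 lay within 7.29 to 7.89 CPM. The log2 difference was −0.27 for THX against Long (SE 0.19, 95% interval −0.73 to 0.19, adjusted p = 0.809, edgeR) and −0.04 for Long against Short (95% interval −0.50 to 0.42, adjusted p = 0.937, edgeR). Without THX pool 1 the THX against Long value was −0.04.

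**Figure D2:**
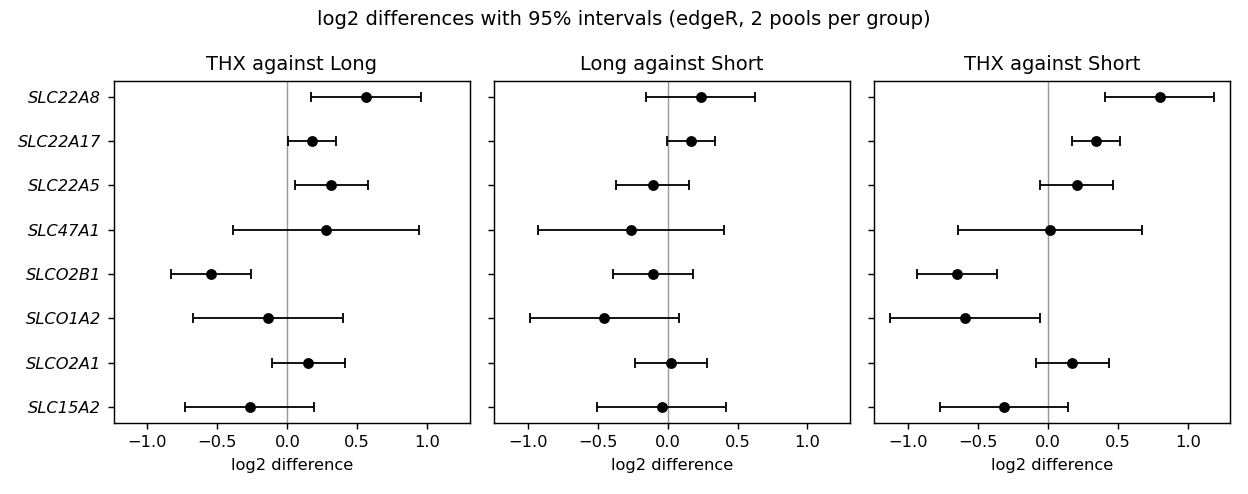
Log2 differences of the 8 transporters (x axis; positive means higher in the first-named group) in THX against Long, Long against Short and THX against Short pools. Points are estimates of the edgeR model and whiskers their 95% intervals, not adjusted for the number of genes. SLCO2B1 (−0.55 and −0.65) and SLC22A8 (0.56 and 0.80) lie farthest from 0 in the THX comparisons, and every Long against Short interval spans 0.

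The comparison of THX with Long pools asks what loss of the thyroid does at a constant day length. Of the 8 transporters, 0 passed by edgeR, against 0.283% of all tested genes. At an unadjusted p below 0.05 there were 4, namely SLCO2B1, SLC22A8, SLC22A5 and SLC22A17, against 9.08% of all tested genes. The groups did not overlap in 3 transporters that were higher in THX pools (18.5% of all genes) and in 1 that was lower (18.7% of all genes). The median log2 difference was 0.16 over the 8 and 0.00 over all tested genes. DESeq2 passed 2 of the 8, SLCO2B1 (log2 difference −0.54, adjusted p = 0.00853) and SLC22A8 (0.56, adjusted p = 0.0363). In all, DESeq2 called 451 of the 18019 tested genes here, where edgeR called 51. Limma-voom called 45 genes and none of the 8. Across the alternatives SLCO2B1 had adjusted p-values from 0.00853 to 0.818 and SLC22A8 from 0.0363 to 0.98.

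The comparison of Long with Short pools asks what day length does in control ewes. Here too 0 of the 8 passed by edgeR, as did 0% of all tested genes. DESeq2 and limma-voom also passed 0 of the 8, and called 167 and 0 of the 18019 tested genes. At an unadjusted p below 0.05 there were 0 of the 8, against 13.8% of all tested genes. SLC22A17 was higher in Long pools without overlap, as were 26.7% of all genes, and SLCO1A2 lower without overlap, as were 26.8%. The 95% intervals of the other 6 do not exclude log2 differences as far from 0 as −0.93 and 0.63.

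The comparison of THX with Short pools differs in both thyroid and day length. Of the 8, 0 passed by edgeR, against 0.916% of all tested genes, and 4 had an unadjusted p below 0.05, against 22.6%. The groups did not overlap in 3 transporters higher in THX pools (SLC22A8, SLC22A17 and SLCO2A1; 25.7% of all genes) and in 3 lower in THX pools (SLCO2B1, SLCO1A2 and SLC15A2; 26.7% of all genes). DESeq2 passed SLCO2B1, SLC22A8 and SLC22A17 (adjusted p = 0.00027, 0.000132 and 0.000132). In all, DESeq2 called 1738 of the 18019 tested genes here, where edgeR called 165. Limma-voom called 176 genes and none of the 8. The adjusted p of SLC22A8 ran from 0.000132 to 0.239 over all alternatives. The 2 comparisons with THX share the THX pools, and the 2 with Short share the Short pools, so they are not separate evidence.

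Because SLC22A8 and SLCO2B1 stood apart from both control groups, THX was also compared with the mean of Long and Short in the same fit, a comparison added after these values were seen. It passed 0 of the 8 by edgeR, against 0.966% of all tested genes. At an unadjusted p below 0.05 there were 4, against 15.9%. The log2 difference was −0.60 for SLCO2B1 (SE 0.10, adjusted p = 0.0617), 0.68 for SLC22A8 (SE 0.14, adjusted p = 0.0921) and 0.26 for SLC22A17 (SE 0.06, adjusted p = 0.126). Both THX pools lay above all 4 control pools in SLC22A8 and SLC22A17, as in 11% of all genes, and below them in SLCO2B1, as in 11.3%. Without Short pool 2 the log2 difference of SLC22A8 was 0.82. That fit leaves only Short pool 1 in its group, the lowest of all pools for SLC22A8 at 64.7 CPM. The adjusted p of SLC22A8 ran from 0.000202 to 0.26 over all alternatives.

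The other transporters of the SLCO, SLC22, SLC15 and SLC47 families and the related SLC29A4 were described from a list of 33, of which 26 were matched and 14 had enough counts. In THX against Long pools 0 rose and 0 fell, with 9 log2 differences above 0 and 5 below and a median of 0.07. In Long against Short pools 0 rose and 0 fell, with a median of −0.03, and in THX against Short pools again 0 passed, with a median of 0.09. SLCO3A1, a broadly expressed prostaglandin and thyroxine transporter, was at 867 and 955 CPM in THX pools, 924 and 825 CPM in Long pools and 856 and 858 CPM in Short pools. SLC29A4, a monoamine transporter of the plasma membrane, was at 86.9 and 84.3 CPM in THX pools, 76.9 and 81.5 CPM in Long pools and 97.3 and 81.2 CPM in Short pools. The THX and Short pools of SLC29A4 overlapped, and its 95% interval for THX against Long was −0.13 to 0.35.

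SLC15A4 and SLC15A3, which export peptides and histidine from lysosomes, had log2 differences of THX against Long pools of 0.03 and −0.09. SLC15A4 ranged from 47.5 CPM in Short pool 1 to 53.7 CPM in THX pool 2. SLC22A11 and SLC15A5 had 0 reads in all 6 pools. The intestinal peptide transporter SLC15A1 had 4 to 13 reads per pool and was not tested.

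**Figure D3:**
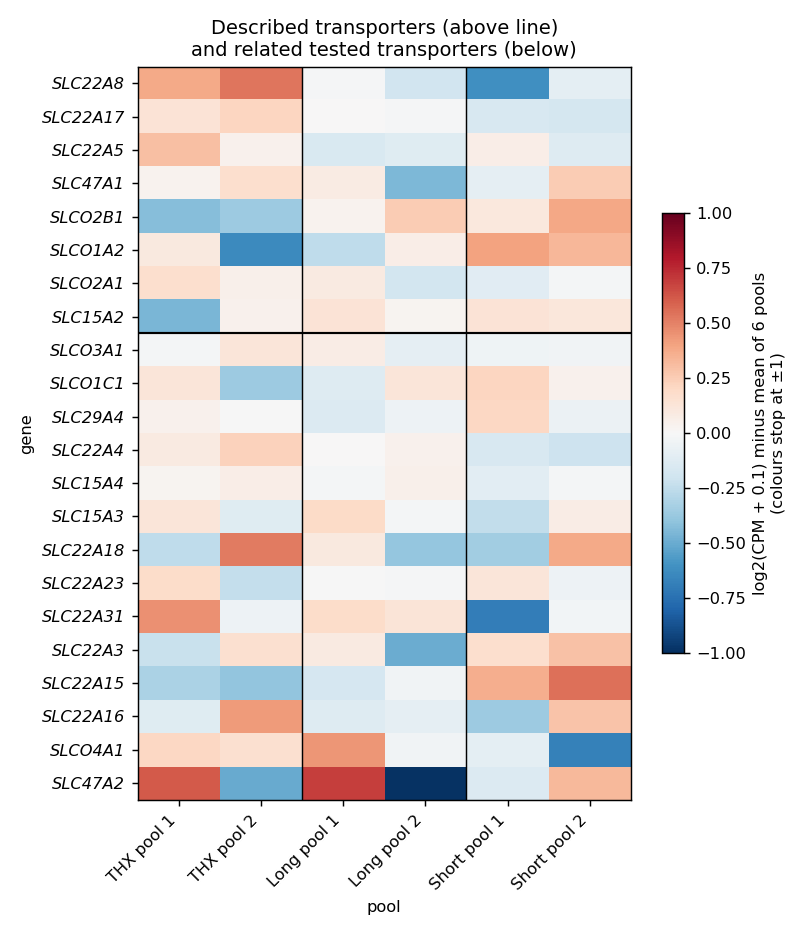
Level of the 8 transporters (above the line) and of the 14 related transporters with enough counts (below, by falling mean level) in each pool, as log2(CPM + 0.1) minus the gene's mean over the 6 pools. Columns are pools and colours stop at 1 on either side of 0. SLC22A8 is red in both THX pools and SLCO2B1 blue in both, while SLCO1A2 and SLCO1C1 are bluest in THX pool 2.

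A further list held 28 genes that work with these transporters: dicarboxylate carriers that feed organic anion exchange, proteins that anchor transporters below the membrane, ABC efflux pumps, and enzymes of carnitine and prostaglandin use. Of these, 25 were matched and 22 tested. In THX against Long pools 0 passed, with a median log2 difference of −0.11. In THX against Short pools 1 rose and 0 fell. The gene that rose was SLC13A5, a sodium-coupled citrate carrier, at 8.33 and 9.99 CPM in THX pools, 5.01 and 5.72 CPM in Long pools and 4.09 and 4.50 CPM in Short pools. Its log2 difference of THX against Short was 1.09 (SE 0.17, adjusted p = 0.045, edgeR). In the fits without 1 pool it passed only without THX pool 1 (adjusted p = 0.0363) and lost its call without THX pool 2, either Long pool or either Short pool, with log2 differences from 0.96 to 1.22 over all 6 fits. Over all alternatives its adjusted p ran from 5.96e-06 to 0.237. Against Long pools it was at 0.77 (adjusted p = 0.204, edgeR).

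SLC13A3, the carrier that supplies the dicarboxylates exchanged by SLC22A8 in kidney cells, was at 228 and 288 CPM in THX pools, 166 and 215 CPM in Long pools and 174 and 199 CPM in Short pools. Both THX pools of SLC13A3 were above all 4 control pools, without passing (log2 difference of THX against Long 0.44, SE 0.16, adjusted p = 0.464, edgeR). ABCC5, an efflux pump for organic anions, was at 160 and 133 CPM in THX pools, 219 and 190 CPM in Long pools and 247 and 222 CPM in Short pools. ABCC5 thus lay lower in THX than in all control pools, with adjusted p = 0.247 against Long and 0.0573 against Short (edgeR). CPT2, a mitochondrial enzyme of carnitine use, was at 81.0 and 76.8 CPM in THX pools, 96.8 and 98.3 CPM in Long pools and 109 and 99.0 CPM in Short pools. CPT2 was thus lower in THX than in all control pools (log2 difference −0.31 against Long, adjusted p = 0.264, and −0.40 against Short, adjusted p = 0.0721, edgeR). Of the 22 partners, 3 lay above all 4 control pools in both THX pools (SLC13A3, SLC13A5 and SLC9A3R1, against 11% of all genes) and 4 below them (ABCC5, CPT2, MSN and ABCG2, against 11.3%). SLC13A3, ABCC5 and CPT2 were chosen for description after their values were seen.

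Lists of cell type markers were set beside the transporters. The 15 matched epithelial markers summed to 125492 and 147357 CPM in THX pools, 115244 and 117040 CPM in Long pools and 95190 and 100737 CPM in Short pools, none of them at 0 and TTR making up most of each sum. This is the order of groups seen in SLC22A17. The mean over genes of the log2 deviation from each gene's 6-pool average went the other way. It was −0.11 and −0.13 in THX pools, −0.01 and −0.02 in Long pools and 0.17 and 0.10 in Short pools. Gene by gene the list was split, with 7 log2 differences above 0 and 8 below in THX against Long pools (median −0.05). In THX against Short pools 5 were above 0 and 10 below (median −0.04). Of the 15, 0 rose and 2, the serotonin receptor HTR2C and the kinase cofactor CAB39L, fell in THX against Long pools (log2 difference −0.73 and −0.63, adjusted p = 0.0203 and 0.0274, edgeR), calls that were lost without any 1 of the 6 pools (adjusted p from 0.0509 to 0.189 for HTR2C and from 0.0629 to 0.316 for CAB39L). In THX against Short pools 0 rose and 3 fell, namely HTR2C (−1.39, adjusted p = 0.00168), CAB39L (−0.82, adjusted p = 0.0139) and KL, a co-receptor of the hormone FGF23 (−0.85, adjusted p = 0.033, edgeR). Of these, HTR2C passed without each pool, CAB39L lost its call without either Long pool or Short pool 1 (highest adjusted p 0.0843), and KL lost its call without any pool but THX pool 1 (highest adjusted p 0.173).

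The 14 markers of fibroblasts and leptomeninges, which line the outside of the brain, summed to 4348 and 4913 CPM in THX pools, 3876 and 3421 CPM in Long pools and 2666 and 3324 CPM in Short pools. Of the 14, 0 rose and 1, the matrix protein lumican (LUM), fell in THX against Long pools (log2 difference −0.74, adjusted p = 0.0314, edgeR), a call lost without any 1 of the 6 pools (adjusted p from 0.0563 to 0.256). In THX against Short pools 1 rose, IGFBP2 (log2 difference 1.01, adjusted p = 0.0237, edgeR), and 1 fell, LUM (−0.60, adjusted p = 0.0351, edgeR). The call of IGFBP2 was lost without either Long or either Short pool (highest adjusted p 0.137) and that of LUM without any pool but THX pool 1 (highest adjusted p 0.184). Gene by gene, 10 of the 14 were below 0 and 4 above in THX against Long pools (median log2 difference −0.31), where SLC22A8 was at 0.56. In THX against Short pools 10 were below 0 and 4 above (median −0.46), where SLC22A8 was at 0.80. The sums, in contrast, were highest in both THX pools and lowest in Short pool 1, as SLC22A8 was. The growth factor binding protein IGFBP2 and the prostaglandin synthase PTGDS made up most of them, and the other 12 markers summed to 629 and 868 CPM in THX pools, 1026 and 944 CPM in Long pools and 859 and 1122 CPM in Short pools. The 6 markers of ependyma, the ciliated lining of the ventricles, summed to 577 and 644 CPM in THX pools, 525 and 458 CPM in Long pools and 470 and 457 CPM in Short pools, with none at 0 in all pools. Both THX pools were above all 4 control pools, as in SLC22A8 and SLC22A17. FOXJ1, a transcription factor of ciliated cells, made up most of the sum, at 432 and 496 CPM in THX pools, 393 and 323 CPM in Long pools and 331 CPM in both Short pools. Of the 5 that were tested 0 passed in any comparison, with a median log2 difference of 0.21 for THX against Long and 0.38 for THX against Short. In 3 of the 5 (FOXJ1, CCDC153 and CFAP126) both THX pools were above all 4 control pools, against 11% of all genes. The 8 markers of neurons and glia summed to 382 and 384 CPM in THX pools, 341 and 380 CPM in Long pools and 368 and 361 CPM in Short pools, and 0 of them passed. The part of epithelium, fibroblasts, leptomeninges and ependyma in the levels of SLC22A8 and SLC22A17 was not tested.

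The 10 matched macrophage markers summed to 232 and 243 CPM in THX pools, 272 and 288 CPM in Long pools and 219 and 261 CPM in Short pools, with none at 0. All 10 were below 0 in THX against Long pools (median log2 difference −0.28, 0 rose and 0 fell), as SLCO2B1 was. Of the 10, 7 were lower in THX than in Long pools without overlap, against 18.7% of all genes. Against Short pools 6 of the 10 were below 0 (median −0.08), where SLCO2B1 was at −0.65, and 3 were lower without overlap (26.7% of all genes). In 3 of the 10 (MRC1, PTPRC and LYVE1) both THX pools lay below all 4 control pools, as in SLCO2B1, against 11.3% of all genes. The 12 endothelial markers, with none at 0, summed to 986 and 993 CPM in THX pools. Their sums were 1038 and 961 CPM in Long pools and 904 and 1121 CPM in Short pools. The median log2 difference was −0.02 for THX against Long and −0.07 for THX against Short, and 0 passed in either. Against Short pools 5 were above 0 and 7 below, 4 of them lower without overlap (26.7% of all genes). Among the endothelial markers, only EMCN had both THX pools below all 4 control pools, as SLCO2B1 had (1 of 12, against 11.3% of all genes). The 8 markers of pericytes and smooth muscle, the contractile cells of vessel walls, summed to 1289 and 1461 CPM in THX pools, 1545 and 1501 CPM in Long pools and 1521 and 1809 CPM in Short pools. Both THX sums were below those of all 4 control pools, an order that SLCO2B1 also had. Taken singly, 0 of the 8 markers had both THX pools below all 4 control pools, against 11.3% of all genes. Of these 8, 7 were below 0 in THX against Long (median log2 difference −0.13) and all 8 in THX against Short pools (median −0.25), and 0 passed in either. The part of macrophages, endothelium, pericytes and smooth muscle in the level of SLCO2B1 was not tested.

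**Figure D4:**
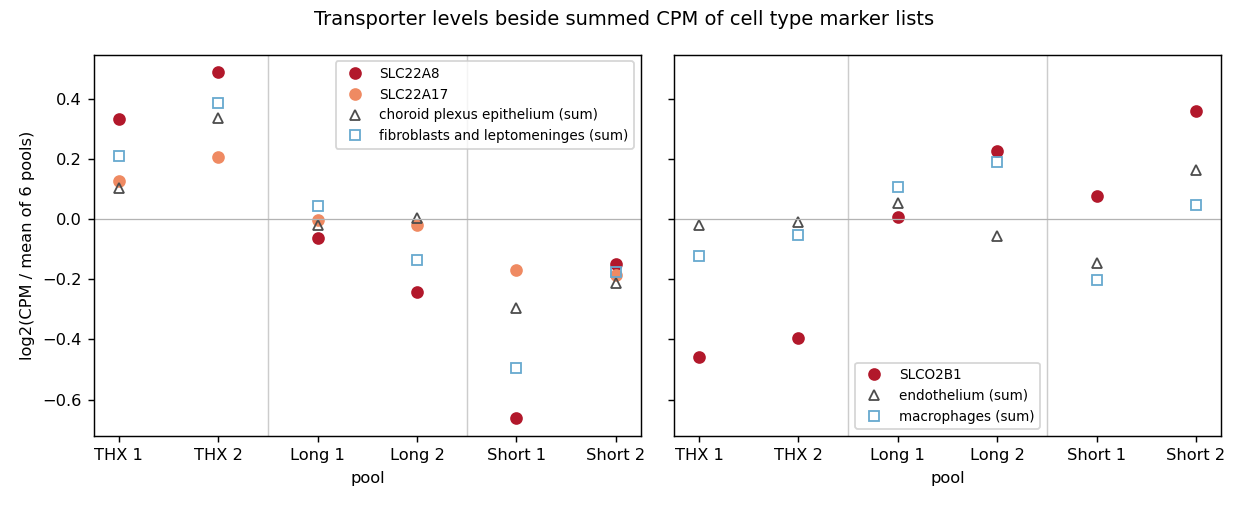
Levels of SLC22A8 and SLC22A17 (left) and of SLCO2B1 (right) as log2 of the CPM over the mean of the 6 pools (y axis), beside the summed CPM of 2 marker lists in each panel on the same scale; columns are the 6 pools. SLC22A8 and both sums on the left are highest in THX pool 2. TTR makes up most of the epithelial sum, and IGFBP2 and PTGDS most of the fibroblast and leptomeninges sum. SLCO2B1 is lowest in the THX pools, while the macrophage sum is lowest in Short pool 1.

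By a rule, the genes most like 2 of the transporters over the 6 pools were named as a description. The log2 CPM of SLC22A17, the member with the highest mean CPM, was most like those of SH2B2, UBE2U and MESP1 (Pearson r = 0.999, 0.999 and 0.998 over 6 pools). Of 12293 candidate genes, 712 had r above 0.9. SLCO2B1, the member with the lowest p in THX against Long pools, was most like SEMA3G, MMP24 and STAC2 (r = 0.993, 0.987 and 0.985), with 193 genes above 0.9. SEMA3G was at 47.8 and 51.1 CPM in THX pools, 64.4 and 71.2 CPM in Long pools and 63.1 and 77.3 CPM in Short pools. All genes of a pool share its library and its ewes.

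TPBGL is the next protein-coding gene to SLCO2B1 on the sheep assembly of the reference table, and it was named after its values were seen. It was at 8.22 and 8.86 CPM in THX pools, 3.69 and 3.04 CPM in Long pools and 3.49 and 3.33 CPM in Short pools. TPBGL rose in THX against Long pools (log2 difference 1.34, SE 0.17, adjusted p = 0.0443, edgeR), opposite in sign to SLCO2B1. The call was lost without any 1 of the 6 pools (log2 differences from 1.21 to 1.49, adjusted p from 0.0878 to 0.329) and also with the pool number as a block (1.35, adjusted p = 0.0554), under total counts (1.29, adjusted p = 0.052) and with only the 4 pools compared (1.34, adjusted p = 0.0912). Of the tested genes next to the other 7 transporters, 0 passed in THX against Long pools. TPBGL also rose in THX against Short pools (log2 difference 1.32, SE 0.17, adjusted p = 0.0319, edgeR). That call was kept in 9 of 15 alternatives, with log2 differences from 1.22 to 1.38.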

How the data were processed

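Stranded mRNA libraries of 6 choroid plexus pools were sequenced, per the labels' protocols. The submitters' processing notes name TopHat2 2.1.1, SAMtools 1.9 and featureCounts 2.0.0. What the authors deposited is a table of raw read counts by gene, as whole numbers without normalisation. Build, annotation and strandedness used in counting are not given in the sources, which leaves overlapping and antisense genes uncertain, and positions are not reported. The reference table of the sheep assembly ARS-UI_Ramb_v3.0 holds 28100 of the 33609 identifiers and was used for names and neighbours alone.

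In R 4.3.3, edgeR 4.0.16 removed genes with low counts (default filter), scaled by TMM and fitted 1 mean per group over all 6 pools by quasi-likelihood (3 residual and 3.96 prior degrees of freedom). Tests are two-sided with Benjamini-Hochberg adjustment over 18019 genes at a threshold of 0.05. SEs and 95% intervals use the same model's variance. Alternatives used DESeq2 1.42.0, limma 3.58.1, other scalings and filters, only the pools compared, a block for the pool number, and each pool left out. The procedure was tested on simulated data. Pools of a group were separate libraries: their counts differed by 15.8 (Long) to 70.1 (THX) times the variance of counting. Figures used Python 3.11.15 and matplotlib 3.10.9.

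The transporters, lists and tests were chosen with earlier results of these data known. The naming rule took all matched members, related genes that passed or were among the 6 with the highest mean CPM, partner genes that passed, and the 3 genes most like 2 members (mean CPM of at least 2). No sequences were used here.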

Additional observations from a re-analysis of the deposited data

How the results depend on the processing

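Alternative values were taken for the 8 transporters, HR, KLF9, SLC13A5, TPBGL, HTR2C, CAB39L, KL, LUM and IGFBP2, and not for the other genes named above. Of 999 such values, 868 kept their direction and their side of the threshold, 90 lost a call, 26 gained 1 and 15 changed sign. Under total counts, log2 differences were −0.0262 for SLCO2A1 in Long against Short and −0.0857 for SLC47A1 in THX against Short, opposite in sign to the reported values. With 1 pool left out, the sign also turned for SLCO1A2 in THX against Long (range −0.556 to 0.185). It turned in Long against Short for SLCO2A1 (−0.12 to 0.161), SLCO2B1 (−0.24 to 0.0414), SLC15A2 (−0.101 to 0.0187), SLC22A8 (−0.000333 to 0.513), KLF9 (−0.127 to 0.0523) and TPBGL (−0.167 to 0.121), and in THX against Short for SLC47A1 (−0.161 to 0.203). Counts of changed genes were 51 (THX against Long), 0 (Long against Short), 165 (THX against Short) and 174 (THX against both). Without 1 pool they ran from 2 to 37, 0 to 4, 10 to 1087 and 10 to 122. With no filter they were 204, 0, 908 and 553, with DESeq2 451, 167, 1738 and 1034, with only the 4 pools compared 22, 0 and 11, and with total counts THX against Short gave 259. The number of the 8 transporters called, 0 by edgeR, was 2, 0, 3 and 3 with DESeq2, 0, 0, 3 and 2 with no filter, and 1 (SLCO2B1) under total counts in both THX against Short and THX against both. Without 1 pool it ran from 0 to 2 in THX against Short and 0 to 1 in THX against both. The cause of these shifts was not tested. The pool numbers are not stated to pair pools: deviations of pools with the same number correlated at 0.07 (THX and Long), −0.06 (Long and Short) and 0.21 (THX and Short). With the pool number as a replicate block, 392 genes and 1 transporter (SLCO2B1) were called in THX against Short and 264 and 1 in THX against both. Of the 8 transporters SLC47A1 has the fewest reads, and counting error is widest there.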
